A study of Mus musculus with 6 samples.

Results

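The 98 genes described here peaked in reserve cells, the mononucleated cells that remain when C2C12 myoblasts fuse into myotubes. They were chosen by their levels in 6 RNA-seq libraries, from 25308 features with a count. Levels are in CPM, the count of a gene scaled to a common library total. A gene was a member when both reserve cell libraries held at least 10 CPM and the lower of them was at least 2.5 times the highest of the 4 other libraries. Of 9477 genes with at least 10 CPM in both reserve cell libraries, 1.03% were members. Reserve cell levels chose the members, so their excess over the other groups is given as a description and carries no test. The members were 95 protein-coding genes, 1 antisense RNA (4833422C13Rik), 1 lincRNA (Gm40841) and 1 transcript that the annotation used here assigns to no gene (ENSMUST00000239425.1).

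C2C12 is an established mouse myoblast line, and no genetic change or compound is named for any group. The groups were reserve cells and myotubes, both taken after 7 days in low-serum medium, and myoblasts harvested shortly before confluency. Each group had 2 libraries of poly(A) RNA, which the submitters call biological replicates. Reserve cells and myotubes came from mixed cultures and were parted by mild trypsin treatment, so each is a fraction and not a clone. The labels give medium with 2% horse serum for all samples, myoblasts included. The study's methods instead give a medium richer in serum, with fetal bovine serum, for growth, and 2% horse serum for differentiation only. Medium and cell state then cannot be told apart in comparisons with myoblasts. The methods also give a time shorter than 7 days for differentiation.

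When serum is withdrawn, some myoblasts leave the cell cycle without fusing. These reserve cells can re-enter the cycle, and they are used as a culture model of the satellite cell, the stem cell of skeletal muscle. The extracellular matrix around such cells is built from fibres, proteoglycans and glycoproteins, and secreted proteases and their inhibitors remodel it. Ligands of the BMP, activin, Wnt, Notch and IGF pathways act next to this matrix, and many secreted modulators bind them there.

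The libraries held between 15658875 and 20055078 estimated counts. The 37 listed sarcomere genes summed to 21639 and 22203 CPM in reserve cells, 73643 and 71659 CPM in myotubes and 1517 and 1535 CPM in myoblasts. The 32 listed genes of S phase and mitosis summed to 2277 and 2255 CPM in reserve cells, 494 and 510.5 CPM in myotubes and 5440.3 and 5507 CPM in myoblasts. Reserve cells thus lay between the other groups on both lists. Pax7, the transcription factor that marks satellite cells, had 63.3 and 67.4 CPM in reserve cells, 7.85 and 9.98 CPM in myotubes and 79.1 and 73.8 CPM in myoblasts. No listed macrophage or leukocyte marker of 22 reached 10 CPM in reserve cells, their sum lay between 4.50 and 14.9 CPM in all libraries, and Ptprc and Adgre1 had 0 counts throughout. The 20 endothelial markers summed to 34.8 and 37.7 CPM in reserve cells, 14.7 and 12.9 CPM in myotubes and 13.0 and 18.3 CPM in myoblasts, and most of the sum in reserve cells and myotubes came from the member Prox1, while Pecam1 had 0 counts in reserve cells and myotubes. The 39 markers of fibroblasts and fibro-adipogenic cells, 36 of them with at least 3 counts in a library, summed to 5540.0 and 5374 CPM in reserve cells, 2298 and 2242 CPM in myotubes and 8561 and 8306 CPM in myoblasts. The part of these shifts in the members' levels was not tested. In bulk RNA, fewer cells of a type and less RNA per cell cannot be told apart.

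All 98 members together took 2.30% of the counts in each reserve cell library, 0.410% and 0.425% in myotubes and 0.539% and 0.533% in myoblasts. Per gene, mean reserve cell levels ran from 10.4 to 5448 CPM with a median of 81.3 CPM. In the members, the higher of the 2 reserve cell libraries exceeded the lower by a median factor of 1.04. The largest factor was 1.41, in Fat4. Both libraries had to pass the rule, which disfavours genes whose replicates differ. These factors therefore cannot show how close the replicates were. Reserve cells exceeded myotubes by 2.82- to 10.2-fold (median 5.71) and myoblasts by 2.59- to 96.5-fold (median 4.03). Levels outside reserve cells differed in spread. In myotubes they lay between 9.82% and 35.4% of the reserve cell level, whereas in myoblasts they lay between 1.04% and 38.5%. The highest of the other libraries was a myotube library for 40 members and a myoblast library for 58. The satellite cell gene Pax7, no member, was higher in reserve cells than in myotubes, by a log2 difference of 2.66 (adjusted p = 3.94e-07 from edgeR's quasi-likelihood test). Unlike the members, Pax7 had lower CPM in reserve cells than in myoblasts.

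**Figure D1:**
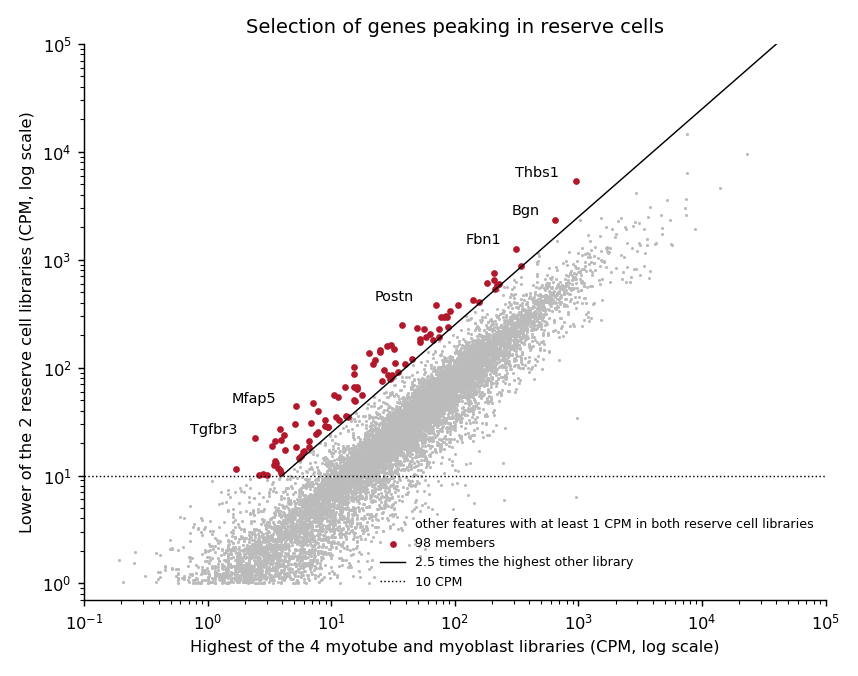
Each point is a feature with at least 1 CPM in both reserve cell libraries, with the lower reserve cell library on the y axis against the highest of the 4 myotube and myoblast libraries on the x axis (CPM, log scales). The 98 members (red) lie above both the dotted line at 10 CPM and the solid line at 2.5 times the highest other library, and Thbs1, at 5393 and 5502 CPM in reserve cells, lies highest.

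The rule drew a line through a continuum. Just inside the fold limit were Pdgfrb at 2.55, Sdc2 at 2.56, Aacs at 2.56, Spats2l at 2.57 and Egfr at 2.59 times the highest other library. Just outside were Pcdhb16 at 2.49, Col5a1 and Gm36377 at 2.48, Hsd11b1 at 2.46 and Socs3 at 2.45 times. At the level limit, 4833422C13Rik (10.1 CPM in the lower reserve cell library), Rapgef3 (10.2 CPM), Ror1 (10.3 CPM), Scara3 (10.7 CPM) and Kirrel3 (11.1 CPM) were inside, while Artn (9.94 CPM), Tmem45a (9.81 CPM), Nhs (9.73 CPM), Pcsk6 (9.33 CPM) and Olfr805 (9.06 CPM) were outside. The excess was largest for Tgfbr3, whose lower reserve cell library was 9.26 times the highest other library, and 33 members exceeded 4-fold and 24 exceeded 5-fold.

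Structural matrix genes formed the most abundant group, with 19 members at a median of 339.5 CPM in reserve cells. Roles were assigned by hand after the members were known. Thbs1 (chr2:118111876-118127133 of mm10), which encodes the adhesive glycoprotein thrombospondin-1, had 5393 and 5502 CPM in reserve cells, 917 and 954 CPM in myotubes and 757 and 760.2 CPM in myoblasts. Per length it stood at 2207 TPM (the share of the library corrected for transcript length) in reserve cells, below Mgp at 2957 TPM and Bgn at 2315 TPM. Mgp encodes matrix Gla protein, an inhibitor of calcification, and it had 796 and 754 CPM in reserve cells, 111 and 99.6 CPM in myotubes and 206 and 198 CPM in myoblasts. Bgn, the small leucine-rich proteoglycan biglycan, had 2369 and 2339 CPM in reserve cells, 326 and 337 CPM in myotubes and 649.6 and 617 CPM in myoblasts. Fbn1, the microfibril protein fibrillin-1, had 1247 and 1275 CPM in reserve cells, 179.6 and 180.3 CPM in myotubes and 313 and 303 CPM in myoblasts. For Mgp, Bgn and Fbn1 myoblasts were the second highest group, and for Thbs1 myotubes were.

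Several proteins that sit on or organise fibrils shared this profile. Dcn, the collagen-binding proteoglycan decorin, had 100.3 and 101 CPM in reserve cells, 11.7 and 15.3 CPM in myotubes and 14.2 and 14.96 CPM in myoblasts, a 7.48-fold excess of reserve cells over myotubes and 6.93-fold over myoblasts. Fbln5, an elastic fibre protein, had 154 and 145 CPM in reserve cells, 23.3 and 24.9 CPM in myotubes and 12.3 and 9.82 CPM in myoblasts. Has2, which synthesises hyaluronan, had 144 and 139.8 CPM in reserve cells, 21.8 and 23.003 CPM in myotubes and 21.02 and 24.7 CPM in myoblasts. Both libraries of reserve cells stood far above the other 4 for each of these genes, as the rule requires. Col6a2, a chain of the pericellular collagen VI, had 165 and 161 CPM in reserve cells, 26.6 and 23.003 CPM in myotubes and 30.3 and 25.8 CPM in myoblasts, and Col8a1, a short-chain collagen, had 303 and 292 CPM in reserve cells, 46.3 and 48.8 CPM in myotubes and 74.6 and 76.7 CPM in myoblasts. Sdc2, a cell-surface heparan sulfate proteoglycan, had 878 and 888 CPM in reserve cells, 203 and 213 CPM in myotubes and 336 and 344 CPM in myoblasts and was the member of this group nearest the fold limit. Of the CCN family of matricellular proteins, Ccn2 had 336 and 343 CPM in reserve cells, 63.4 and 58.9 CPM in myotubes and 91.7 and 87.1 CPM in myoblasts. Ccn4 had 433 and 421 CPM in reserve cells, 76.1 and 68.4 CPM in myotubes and 135 and 140.4 CPM in myoblasts, and Ccn5 had 24.4 and 18.9 CPM in reserve cells, 3.19 and 3.31 CPM in myotubes and 1.33 and 2.59 CPM in myoblasts. The 3 CCN genes differed in their second highest group, since Ccn2 and Ccn4 were higher in myoblasts than in myotubes and Ccn5 was higher in myotubes (adjusted p = 0.0247 from edgeR's quasi-likelihood test). Tests used TMM factors (the trimmed mean of M values, edgeR's scaling), and with plain library totals Ccn5 was not called (adjusted p = 0.0822). Ccdc80 (595 and 603 CPM in reserve cells) and Fbln2 (599 and 583 CPM in reserve cells) encode further secreted matrix proteins.

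**Figure D2:**
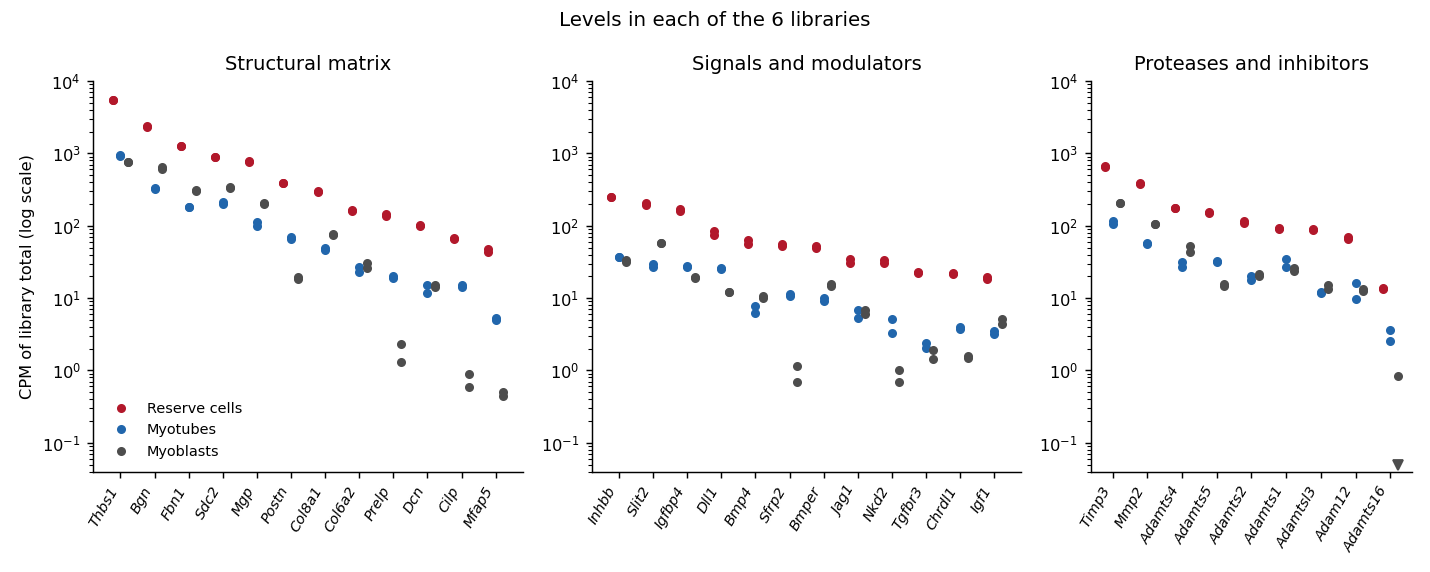
Points give the level in each of the 6 libraries (CPM of the library total, log scale) for 33 members in 3 role groups, with reserve cells left, myotubes in the middle and myoblasts right, and a triangle marks a library with 0 counts. The 2 libraries of a group nearly coincide, myotube levels run roughly parallel below reserve cells, and of the genes shown the myoblast share of the reserve cell level is lowest for Mfap5, Cilp, Prelp, Sfrp2 and Nkd2.

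Most other matrix genes did not meet the rule. Matrix genes were taken from 4 lists (collagens, glycoproteins, proteoglycans, and enzymes with their inhibitors). Of their 87 genes with at least 10 CPM in both reserve cell libraries, 21 (24.1%) were members. The share was 1.03% for all genes at that level. The lists were chosen with earlier results of these data known, so the 2 shares are a description and carry no test. Outside the members, 28 of 35 tested matrix glycoproteins were higher and 1 lower in reserve cells against myotubes, but 11 were higher and 17 lower against myoblasts. Over all 15467 genes tested, 28.4% were higher and 27.2% lower in reserve cells against myotubes, and 24.3% were higher and 21.8% lower against myoblasts. Scaled by library totals alone, 5670 genes were higher and 2932 lower against myotubes (median log2 difference 0.21), and 3310 were higher and 3957 lower against myoblasts (median -0.06). Under that scaling the matrix lists moved by at most 2 genes in any count. Of 19 tested collagens outside the members, 15 were higher and 1 lower against myotubes, and 10 were higher and 5 lower against myoblasts. Col1a2, a chain of the fibrillar collagen I, had 1365 and 1321 CPM in reserve cells, 221 and 225 CPM in myotubes and 1369.5 and 1356 CPM in myoblasts. Col3a1, a chain of the fibrillar collagen III, had 2562 and 2444 CPM in reserve cells, 413 and 391 CPM in myotubes and 2216 and 2216 CPM in myoblasts. Of 16 proteoglycans outside the members, 11 were higher and 0 lower against myotubes, and 10 were higher and 3 lower against myoblasts. Genes that meet the rule are left out of these counts, which lowers the number counted as higher in both comparisons.

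Matrix proteases and protease inhibitors made up 12 members. Timp3, a matrix-bound inhibitor of metalloproteinases, had 643 and 659 CPM in reserve cells, 107 and 115 CPM in myotubes and 208 and 207 CPM in myoblasts. Mmp2, the gelatinase that degrades denatured collagen and collagen IV, had 379 and 390.2 CPM in reserve cells, 57.6 and 56.4 CPM in myotubes and 106 and 106 CPM in myoblasts, a 6.74-fold excess of reserve cells over myotubes. The ADAMTS family supplied 5 members, secreted metalloproteinases with thrombospondin repeats. Adamts4, an aggrecanase, had 177 and 174 CPM in reserve cells, 31.5 and 26.8 CPM in myotubes and 51.9 and 43.8 CPM in myoblasts. Adamts5, also an aggrecanase, had 157 and 150.1 CPM in reserve cells, 31.8 and 32.4 CPM in myotubes and 14.6 and 15.5 CPM in myoblasts. Adamts1, which cleaves versican, had 90.3 and 93.6 CPM in reserve cells, 27.3 and 34.9 CPM in myotubes and 23.7 and 26.4 CPM in myoblasts. Adamts1 and Adamts5 are neighbours on chromosome 16 with 53060 bases between them. They differed outside reserve cells, in that myoblasts held 27.2% of the reserve cell level of Adamts1 and 9.79% of that of Adamts5. Adamts2, which trims the N-terminal propeptide of fibrillar procollagens, had 116 and 108 CPM in reserve cells, 18.01 and 20.4 CPM in myotubes and 20.3 and 21.7 CPM in myoblasts. Adamts16 had 13.2 and 13.6 CPM in reserve cells, 3.58 and 2.58 CPM in myotubes and 0 and 0.848 CPM in myoblasts, and the myoblast library at 0 held fewer than the 3 counts (0.190 CPM) taken as the detection floor. Adamtsl3, an ADAMTS-like protein without protease activity, had 87.2 and 89.8 CPM in reserve cells, 12.01 and 11.8 CPM in myotubes and 15.2 and 13.5 CPM in myoblasts. For Adamts16 the myotube libraries lay between the other groups, whereas for Adamts2 and Adamtsl3 myotubes and myoblasts were close. Adam12, a membrane-anchored metalloproteinase expressed in regenerating muscle, had 69.7 and 66.3 CPM in reserve cells, 9.71 and 16.1 CPM in myotubes and 12.7 and 13.3 CPM in myoblasts. Serping1, the inhibitor of complement C1 proteases, had 49.7 and 50.2 CPM in reserve cells, 10.3 and 9.46 CPM in myotubes and 12.8 and 15.3 CPM in myoblasts, and C1s1, which encodes C1s itself, had 11.8 and 12.95 CPM in reserve cells, 1.79 and 2.12 CPM in myotubes and 2.85 and 3.69 CPM in myoblasts. Of 27 tested enzymes and inhibitors outside the members, 21 were higher and 2 lower in reserve cells against myotubes. Against myoblasts, 11 were higher and 4 lower. The shares over all genes were 28.4% and 27.2% against myotubes, and 24.3% and 21.8% against myoblasts.

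The signalling group held 14 members, and BMP and TGF-beta signalling supplied 5 of them. Bmp4, a ligand that activates SMAD signalling, had 63.02 and 56.1 CPM in reserve cells, 7.73 and 6.20 CPM in myotubes and 10.1 and 10.6 CPM in myoblasts. Inhbb, the beta-B subunit of activins and inhibins, had 248 and 251 CPM in reserve cells, 36.9 and 37.2 CPM in myotubes and 33.3 and 31.5 CPM in myoblasts. Inhbb was called higher in myotubes than in myoblasts (adjusted p = 2.57e-04) and Bmp4 was not called (adjusted p = 0.09), although library totals called Bmp4 lower (log2 difference -0.58, adjusted p = 0.00641). Chrdl1, a secreted BMP antagonist, had 22.3 and 21.3 CPM in reserve cells, 3.77 and 3.93 CPM in myotubes and 1.58 and 1.496 CPM in myoblasts. Bmper, which binds BMPs outside the cell, had 52.7 and 49.1 CPM in reserve cells, 9.07 and 10.03 CPM in myotubes and 15.4 and 14.7 CPM in myoblasts. Tgfbr3, or betaglycan, a co-receptor that presents TGF-beta and inhibin, had 23.1 and 22.5 CPM in reserve cells, 2.04 and 2.43 CPM in myotubes and 1.46 and 1.94 CPM in myoblasts. Ligands, extracellular modulators and a co-receptor thus all were members. Among the 37 tested genes of the list outside the members, 20 were higher and 6 lower in reserve cells against myotubes. Against myoblasts, 24 were higher and 4 lower. All genes tested gave 28.4% and 27.2% against myotubes, and 24.3% and 21.8% against myoblasts. Grem1, another BMP antagonist, had 973 and 963 CPM in reserve cells, 139.7 and 138 CPM in myotubes and 462 and 447 CPM in myoblasts and missed the fold limit. The SMAD target Id3 went the other way against myoblasts, with 26.1 and 29.6 CPM in reserve cells, 5.30 and 4.24 CPM in myotubes and 204 and 183 CPM in myoblasts and a log2 difference of -2.72 for reserve cells over myoblasts (adjusted p = 2.87e-07).

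In the Wnt pathway the members were 2 receptors and 2 inhibitors. Fzd1, a Frizzled receptor, had 239.6 and 239 CPM in reserve cells, 75.2 and 81.2 CPM in myotubes and 84.5 and 87.8 CPM in myoblasts, and Ror1, a receptor for Wnt5a, had 10.5 and 10.3 CPM in reserve cells, 2.30 and 2.43 CPM in myotubes and 1.84 and 2.79 CPM in myoblasts. Sfrp2, a secreted protein that binds Wnts, had 52.9 and 55.6 CPM in reserve cells, 10.8 and 11.3 CPM in myotubes and 0.696 and 1.15 CPM in myoblasts. Nkd2, an intracellular inhibitor that binds Dishevelled, had 30.3 and 33.1 CPM in reserve cells, 5.11 and 3.26 CPM in myotubes and 1.01 and 0.698 CPM in myoblasts. Sfrp2 and Nkd2 were nearly absent from myoblasts, while Fzd1 was not. Trabd2b, which encodes the Wnt-cleaving membrane protease Tiki2, was not on the Wnt list and had 21.1 and 21.8 CPM in reserve cells, 3.51 and 3.41 CPM in myotubes and 0 and 0.898 CPM in myoblasts. Axin2, a widely used target of beta-catenin signalling, was no member and had 17.7 and 17.1 CPM in reserve cells, 8.24 and 9.61 CPM in myotubes and 0.570 and 0.449 CPM in myoblasts. Of the 33 tested Wnt genes outside the members, 17 were higher and 5 lower in reserve cells against myotubes. Against myoblasts, 12 were higher and 7 lower. For all genes the shares were 28.4% and 27.2% against myotubes, and 24.3% and 21.8% against myoblasts.

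Of the Notch pathway, the members were the ligands Dll1 and Jag1. Dll1 had 84.6 and 75.6 CPM in reserve cells, 25.9 and 24.9 CPM in myotubes and 12.2 and 12.3 CPM in myoblasts, so myotubes lay between the other groups. Jag1 had 30.7 and 34.6 CPM in reserve cells, 5.24 and 6.77 CPM in myotubes and 5.95 and 6.88 CPM in myoblasts, with myotubes and myoblasts overlapping. The listed receptors and targets of the pathway were no members. Notch3, a receptor, had 353 and 355 CPM in reserve cells, 51.8 and 50.5 CPM in myotubes and 342 and 353 CPM in myoblasts. Heyl, a transcriptional target of Notch, had 74.6 and 71.6 CPM in reserve cells, 13.2 and 17.7 CPM in myotubes and 46.8 and 51.1 CPM in myoblasts, and Hey1, another target, had 6.82 and 6.29 CPM in reserve cells, 2.75 and 1.65 CPM in myotubes and 24.4 and 28.2 CPM in myoblasts. Of the 20 tested Notch genes outside the members, 14 were higher and 2 lower in reserve cells against myotubes. Against myoblasts, 5 were higher and 8 lower. All genes gave 28.4% and 27.2% against myotubes, and 24.3% and 21.8% against myoblasts. The Notch share higher against myoblasts was thus near that of all genes. Jag2, another ligand gene, was highest in myoblasts, with 41.5 and 42.4 CPM in reserve cells, 52.8 and 49.8 CPM in myotubes and 129.9 and 128 CPM in myoblasts.

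In the IGF axis, Igf1, a growth factor for muscle, had 19.6 and 18.4 CPM in reserve cells, 3.19 and 3.52 CPM in myotubes and 4.43 and 5.14 CPM in myoblasts. Igfbp4, a secreted IGF-binding protein, had 172 and 159.9 CPM in reserve cells, 27.01 and 28.02 CPM in myotubes and 19.8 and 18.6 CPM in myoblasts. Irs2, an adaptor below the insulin and IGF1 receptors, had 85.7 and 79.3 CPM in reserve cells, 13.9 and 12.7 CPM in myotubes and 30.3 and 24.8 CPM in myoblasts. The other IGF ligand and binding proteins had other profiles. Igf2 was highest in myotubes, with 83.3 and 78.6 CPM in reserve cells, 149.6 and 158 CPM in myotubes and 17.3 and 16.95 CPM in myoblasts. Igfbp5 was highest in myoblasts, with 1409 and 1467 CPM in reserve cells, 1173 and 1197 CPM in myotubes and 5568 and 5565 CPM in myoblasts, and Igfbp2 likewise, with 35.6 and 34.01 CPM in reserve cells, 5.56 and 8.06 CPM in myotubes and 980.4 and 946 CPM in myoblasts. Of 15 tested genes of the axis outside the members, 7 were higher and 3 lower in reserve cells against myotubes. Against myoblasts, 6 were higher and 4 lower. Among all genes the shares were 28.4% and 27.2% against myotubes, and 24.3% and 21.8% against myoblasts. Slit2, the ligand of Robo receptors, had 191 and 206 CPM in reserve cells, 26.9 and 29.5 CPM in myotubes and 58.2 and 57.2 CPM in myoblasts and was the only member among 27 axon guidance genes with at least 10 CPM in both reserve cell libraries. Fibin, a small secreted protein, had 16.03 and 14.5 CPM in reserve cells, 2.68 and 2.64 CPM in myotubes and 5.51 and 5.48 CPM in myoblasts.

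Receptors and adhesion proteins gave 15 members. Pdgfrb, a receptor for PDGF and a common mesenchymal marker, had 555 and 539 CPM in reserve cells, 72.4 and 83.3 CPM in myotubes and 211 and 211 CPM in myoblasts. Egfr, the EGF receptor, had 77.8 and 91.5 CPM in reserve cells, 9.96 and 14.99 CPM in myotubes and 27.7 and 30.1 CPM in myoblasts. Osmr, the oncostatin M receptor, had 85.5 and 97.9 CPM in reserve cells, 15.01 and 13.6 CPM in myotubes and 28.1 and 28.9 CPM in myoblasts. These 3 growth factor and cytokine receptors each had higher CPM in myoblasts than in myotubes. Itgb5, an integrin chain that pairs with alpha-v, had 618 and 605 CPM in reserve cells, 169 and 182 CPM in myotubes and 159.5 and 155 CPM in myoblasts. Itga11, the alpha chain of a collagen-binding integrin, had 13.9 and 13.8 CPM in reserve cells, 3.51 and 3.46 CPM in myotubes and 2.79 and 1.65 CPM in myoblasts. Cdh6, a classical cadherin, had 27.3 and 29.2 CPM in reserve cells, 3.38 and 3.83 CPM in myotubes and 2.91 and 2.14 CPM in myoblasts. For these adhesion genes myotubes were above myoblasts in CPM. Cmklr1, the receptor for chemerin, had 69.7 and 65.8 CPM in reserve cells, 10.5 and 12.9 CPM in myotubes and 2.15 and 1.99 CPM in myoblasts. Colec12 and Scara3 encode scavenger receptor proteins, and Colec12 had 308 and 301 CPM in reserve cells, 47.2 and 50.1 CPM in myotubes and 77.1 and 84.4 CPM in myoblasts. Tenm4, a teneurin and the single member from the satellite cell and quiescence list, had 28.7 and 30.5 CPM in reserve cells, 6.90 and 5.32 CPM in myotubes and 8.74 and 8.83 CPM in myoblasts. Of the 30 tested genes of that list outside the members, 18 were higher and 6 lower in reserve cells against myotubes. Against myoblasts, 17 were higher and 9 lower. All genes gave 28.4% and 27.2% against myotubes, and 24.3% and 21.8% against myoblasts. Fat4, an atypical cadherin, differed most between its reserve cell libraries, with 15.1 and 21.3 CPM in reserve cells, 1.60 and 3.26 CPM in myotubes and 3.93 and 5.63 CPM in myoblasts.

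Genes of sterol and lipid metabolism gave 8 members. Sqle, squalene epoxidase, had 414 and 408 CPM in reserve cells, 143 and 148 CPM in myotubes and 156 and 158 CPM in myoblasts. Acat2, a cytosolic thiolase, had 205 and 220.3 CPM in reserve cells, 61.1 and 53.4 CPM in myotubes and 55.4 and 63.2 CPM in myoblasts, and Aacs, which activates acetoacetate for lipid synthesis, had 215 and 192 CPM in reserve cells, 68.7 and 74.7 CPM in myotubes and 66.2 and 71.7 CPM in myoblasts. Other sterol genes were also highest in reserve cells but missed the fold limit. Hmgcs1, an early enzyme of the mevalonate pathway, had 978 and 979.8 CPM in reserve cells, 446 and 472 CPM in myotubes and 198 and 201 CPM in myoblasts. Idi1, the isomerase of the same pathway, had 187 and 176 CPM in reserve cells, 74.97 and 74.3 CPM in myotubes and 33.8 and 34.4 CPM in myoblasts. Both were called higher in reserve cells in both comparisons, for Hmgcs1 with log2 differences of 0.89 over myotubes (adjusted p = 5.71e-07) and 2.37 over myoblasts (adjusted p = 3.48e-09). Outside the members, 40 genes of the lipid, sterol and apolipoprotein list were tested. Of these, 31 were higher and 4 lower in reserve cells against myotubes. Against myoblasts, 29 were higher and 3 lower. The shares over all genes were 28.4% and 27.2% against myotubes, and 24.3% and 21.8% against myoblasts. Lipg, endothelial lipase, had 41.1 and 40.03 CPM in reserve cells, 5.11 and 7.81 CPM in myotubes and 6.46 and 5.73 CPM in myoblasts. Cyp1b1, a cytochrome P450 that oxidises oestrogens, retinoids and fatty acids, had 181 and 189 CPM in reserve cells, 22.4 and 25.3 CPM in myotubes and 64.1 and 66.7 CPM in myoblasts. G0s2, an inhibitor of adipose triglyceride lipase, had 35.1 and 35.8 CPM in reserve cells, 8.37 and 8.06 CPM in myotubes and 10.9 and 9.57 CPM in myoblasts.

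Lss, lanosterol synthase, was a member by its gene sum, with 297 and 307 CPM in reserve cells, 81.04 and 80.95 CPM in myotubes and 55.5 and 55.5 CPM in myoblasts, but not by its coding transcripts. The transcript Lss-201, which encodes the enzyme, held 0 and 0 counts in reserve cells, 562 and 550 counts in myotubes and 679 and 832 counts in myoblasts. Lss-204, which the annotation calls a retained-intron transcript, held 4404 and 4646 counts in reserve cells, 614 and 923 in myotubes and 155 and 233 in myoblasts. Both transcripts lie at the same locus and share exons, and StringTie divided the reads between them by estimation. The excess of the Lss sum in reserve cells rests on counts given to retained-intron models.

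**Figure D3:**
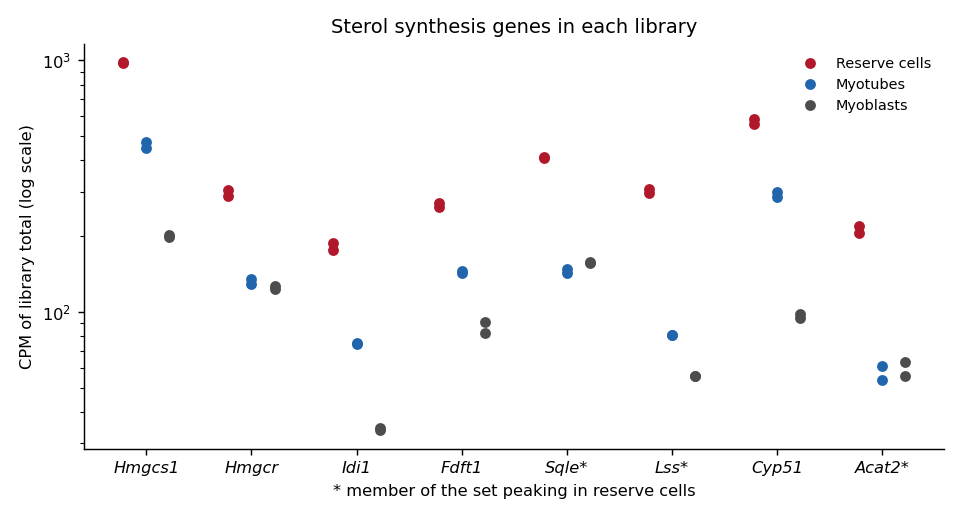
Points give the level in each library (CPM of the library total, log scale) of 8 genes of sterol synthesis, with reserve cells left, myotubes in the middle and myoblasts right, and an asterisk marks the 3 members. Reserve cells are highest for all 8 genes, and myotubes lie clearly above myoblasts for Hmgcs1, Idi1, Fdft1, Lss and Cyp51 but not for Sqle or Acat2. Lss is plotted as its gene sum. Its coding transcripts alone had 0.260 and 0.213 CPM in reserve cells, 36.0 and 28.5 CPM in myotubes and 43.1 and 41.5 CPM in myoblasts.

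The other 30 members had no shared role. Fam20a, a secretory pathway pseudokinase that aids phosphorylation of secreted proteins, had 233 and 247 CPM in reserve cells, 40.9 and 40.9 CPM in myotubes and 49.8 and 46.6 CPM in myoblasts. Tagln, an actin-binding protein of smooth muscle, had 329 and 297 CPM in reserve cells, 56.3 and 68.5 CPM in myotubes and 86.04 and 74.4 CPM in myoblasts. Cp, the copper oxidase ceruloplasmin, had 229 and 233 CPM in reserve cells, 51.3 and 56.2 CPM in myotubes and 52.1 and 49.3 CPM in myoblasts. For each of these 3, the gap between myotubes and myoblasts was small beside the excess in reserve cells. Nox4, an oxidase that makes hydrogen peroxide, had 48.8 and 46.9 CPM in reserve cells, 6.39 and 5.94 CPM in myotubes and 7.15 and 6.33 CPM in myoblasts. Kif26b, a kinesin family protein, had 120.4 and 119 CPM in reserve cells, 22.4 and 19.3 CPM in myotubes and 7.47 and 5.83 CPM in myoblasts. Nos1, neuronal nitric oxide synthase, had 23.5 and 27.9 CPM in reserve cells, 3.83 and 4.14 CPM in myotubes and 2.41 and 1.80 CPM in myoblasts. Kif26b and Nos1 were called higher in myotubes than in myoblasts (adjusted p = 2.12e-06 and 0.00142 from edgeR), and Nox4 was not (adjusted p = 0.355). Among transcription factors, Prox1 had 28.2 and 32.1 CPM in reserve cells, 9.13 and 9.36 CPM in myotubes and 1.65 and 3.74 CPM in myoblasts. Cebpd had 28.1 and 32.2 CPM in reserve cells, 9.39 and 7.60 CPM in myotubes and 4.37 and 4.04 CPM in myoblasts, and Sox8 had 35.5 and 35.3 CPM in reserve cells, 6.51 and 4.45 CPM in myotubes and 12.3 and 13.01 CPM in myoblasts. Prox1 and Cebpd were higher and Sox8 lower in myotubes than in myoblasts (adjusted p = 4.37e-04, 2.36e-04 and 0.00182 from edgeR). Brinp3, a secreted or endoplasmic protein best known from neurons, had 112 and 109 CPM in reserve cells, 17.2 and 25.2 CPM in myotubes and 32.5 and 32.4 CPM in myoblasts. Whrn, the scaffold protein whirlin of hair cells, had 94.7 and 97.3 CPM in reserve cells, 26.8 and 25.5 CPM in myotubes and 25.1 and 24.5 CPM in myoblasts. Rflnb, a regulator of filamin, had 112 and 108 CPM in reserve cells, 39.1 and 36.9 CPM in myotubes and 19.4 and 18.8 CPM in myoblasts. The thyroid hormone precursor gene Tg was also a member, at 32.8 and 36.8 CPM in reserve cells, 5.56 and 6.77 CPM in myotubes and 8.86 and 7.63 CPM in myoblasts, as was Bmf, a pro-apoptotic gene of the BCL2 family, at 33.6 and 33.05 CPM in reserve cells, 5.68 and 8.43 CPM in myotubes and 10.4 and 11.5 CPM in myoblasts. The transcript ENSMUST00000239425.1 had 185 and 223 CPM in reserve cells, 29.2 and 44.97 CPM in myotubes and 42.3 and 52.5 CPM in myoblasts. A further 11 members, Sh3rf3, Gng2, Tmtc2, Fam43a, Slc24a3, Rin2, Spats2l, Ncald, Rapgef3, Gm40841 and 4833422C13Rik, lay between 10.1 and 131 CPM in reserve cells, 1.92 and 31.7 CPM in myotubes and 1.90 and 44.6 CPM in myoblasts. No gene of 42 mesenchymal transcription factors with at least 10 CPM in both reserve cell libraries was a member. Nor was any of 35 sarcomere genes, 32 genes of S phase and mitosis, 18 cell cycle inhibitors or 16 interferon response genes at that level. Only 1.03% of all genes at that level were members, so lists this short cannot show a shortfall.

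The difference between myotubes and myoblasts was not used to choose the members. The rule put the same ceiling on both groups in CPM of library totals. All 98 members were tested for the difference with edgeR's quasi-likelihood test, adjusted over all 15467 genes (Benjamini-Hochberg, threshold 0.05). The test used TMM factors, 0.899 and 0.889 for myotubes and 1.09 and 1.08 for myoblasts. On that scale the ceiling lay higher for myotubes, which favours calls of higher over calls of lower. Of the members, 35 (35.7%) were higher and 28 (28.6%) lower in myotubes, against 32.6% higher and 32.7% lower over all genes tested. The members' shares were thus near the background, and their median log2 difference was 0.14 against 0.00 for all genes. With library totals in place of TMM factors, 27 members were higher and 42 lower, while 24.1% of all genes were higher and 41.8% lower and their median moved to -0.27. Of the members, 21 (21.4%) were called and at least 2-fold higher and 4 (4.08%) called and at least 2-fold lower in myotubes, against 16.8% and 18.7% of all genes. With library totals these were 19 (19.4%) and 12 (12.2%) members, against 13.1% and 24.3% of all genes. Sqle alone among the called members changed sign with the scaling, with log2 differences of 0.17 and -0.11.

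**Figure D4:**
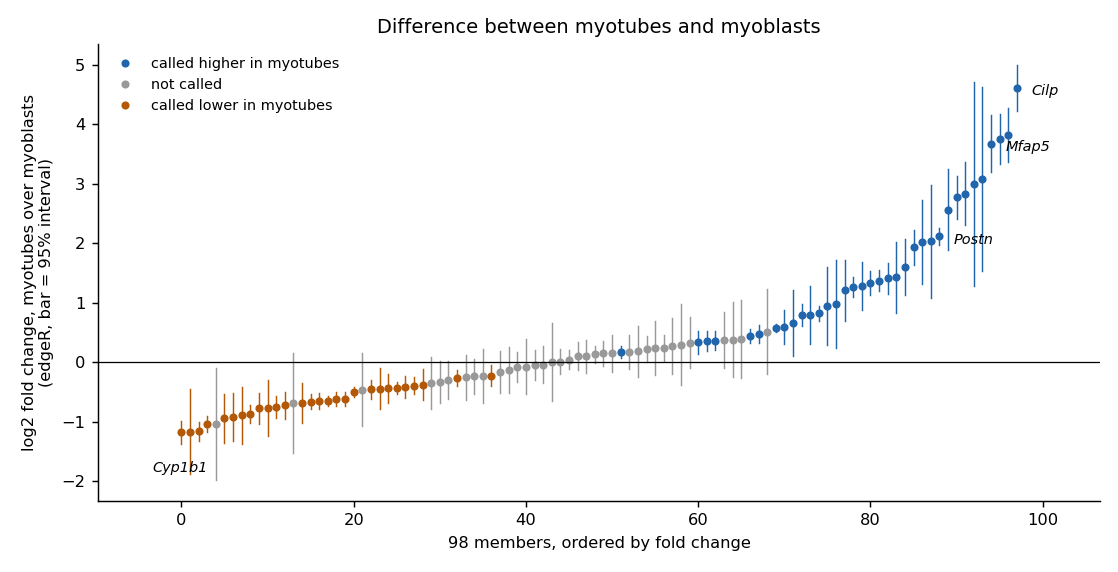
Each of the 98 members is a point at its log2 fold change of myotubes over myoblasts with a 95% interval (edgeR), ordered along the x axis and coloured by the call at an adjusted p of 0.05. The 35 members called higher stretch to 4.62 for Cilp, while the 28 called lower reach no further than -1.17, for Cyp1b1.

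By role, 8 of 14 signalling members were higher and 3 lower in myotubes, and 7 of 19 structural matrix members were higher and 9 lower, where all genes gave 32.6% higher and 32.7% lower. Among proteases and inhibitors 3 of 12 were higher and 3 lower, and among receptors and adhesion proteins 4 of 15 were higher and 5 lower. Among sterol and lipid genes 3 of 8 were higher, Lss by its gene sum among them, and 2 lower. These counts moved with the scaling. Library totals gave 7 higher and 5 lower for signalling, 6 and 9 for structural matrix, 3 and 7 for proteases and inhibitors, 2 and 8 for receptors and adhesion proteins, and 1 and 2 for sterol and lipid genes. The abundant matrix genes were mostly lower in myotubes. The log2 difference was -0.65 for Bgn (SE 0.0369, adjusted p = 8.89e-07), -0.66 for Mgp (adjusted p = 1.41e-05) and -0.50 for Fbn1 (adjusted p = 4.49e-06), whereas it was 0.58 for Thbs1 (adjusted p = 5.66e-07). The largest decreases were those of Cyp1b1 (-1.17, SE 0.0846, adjusted p = 4.18e-06), Scara3 (-1.17, adjusted p = 0.00989), Pdgfrb (-1.16, adjusted p = 1.19e-06) and Ccdc80 (-1.04, adjusted p = 9.87e-07). Sox8, Egfr, Ncald, Fbln2, Irs2 and Fibin followed, with log2 differences between -0.94 and -0.77. Ncald encodes a neuronal calcium sensor.

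At the other end, 11 members had a mean myoblast level under 5% of the reserve cell level, and all 11 were higher in myotubes. They were picked for a low myoblast level, so these calls are no separate result. Their myotube levels lay between 11% and 28.4% of the reserve cell level (median 17.2%). Cilp, the cartilage intermediate layer protein, had 65.8 and 67.4 CPM in reserve cells, 15.4 and 14.4 CPM in myotubes and 0.886 and 0.598 CPM in myoblasts, a log2 difference of 4.62 between myotubes and myoblasts (SE 0.17, adjusted p = 5.98e-08). Prelp, a leucine-rich proteoglycan of basement membranes, had 147 and 138 CPM in reserve cells, 19.2 and 20.2 CPM in myotubes and 2.34 and 1.30 CPM in myoblasts, a difference of 3.75 (SE 0.18, adjusted p = 3.64e-07). Mfap5, a microfibril protein, had 43.8 and 48.3 CPM in reserve cells, 4.92 and 5.22 CPM in myotubes and 0.506 and 0.449 CPM in myoblasts, a difference of 3.68 (SE 0.21, adjusted p = 9.01e-07). In each of these, both myotube libraries lay above both myoblast libraries. Their place below reserve cells is set by the rule. Postn, the matricellular protein periostin, had 385 and 389.7 CPM in reserve cells, 69.9 and 66.5 CPM in myotubes and 19.8 and 18.3 CPM in myoblasts, a difference of 2.12 (SE 0.0618, adjusted p = 1.75e-08). Sfrp2 differed by 3.82 (SE 0.20, adjusted p = 5.26e-07), Cmklr1 by 2.78 (adjusted p = 8.97e-07) and Nkd2 by 2.57 (adjusted p = 8.62e-05). The myotube libraries of these genes again lay above the myoblast libraries. Myotubes came from cultures that also held reserve cells, and the part of carried-over reserve cells in these myotube levels was not tested. Car9, a carbonic anhydrase known for its induction in hypoxia, had 27.5 and 24.1 CPM in reserve cells, 7.47 and 7.19 CPM in myotubes and 1.52 and 0.997 CPM in myoblasts, a difference of 2.83 (adjusted p = 8.81e-06). Fam180a had 13.01 and 11.4 CPM in reserve cells, 1.60 and 1.71 CPM in myotubes and 0.696 and 0.299 CPM in myoblasts, a difference of 2.04 (adjusted p = 0.00241). Trabd2b and Adamts16 rest on few counts in myoblasts. Their differences of 3.08 (SE 0.67, adjusted p = 0.00368) and 2.999 (SE 0.74, adjusted p = 0.007) became 2.20 and 2.11 without myoblast replicate 1, and without myoblast replicate 2 the remaining myoblast library held 0 counts. DESeq2 called neither (adjusted p = 0.0737 and 0.0806).

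**Figure D5:**
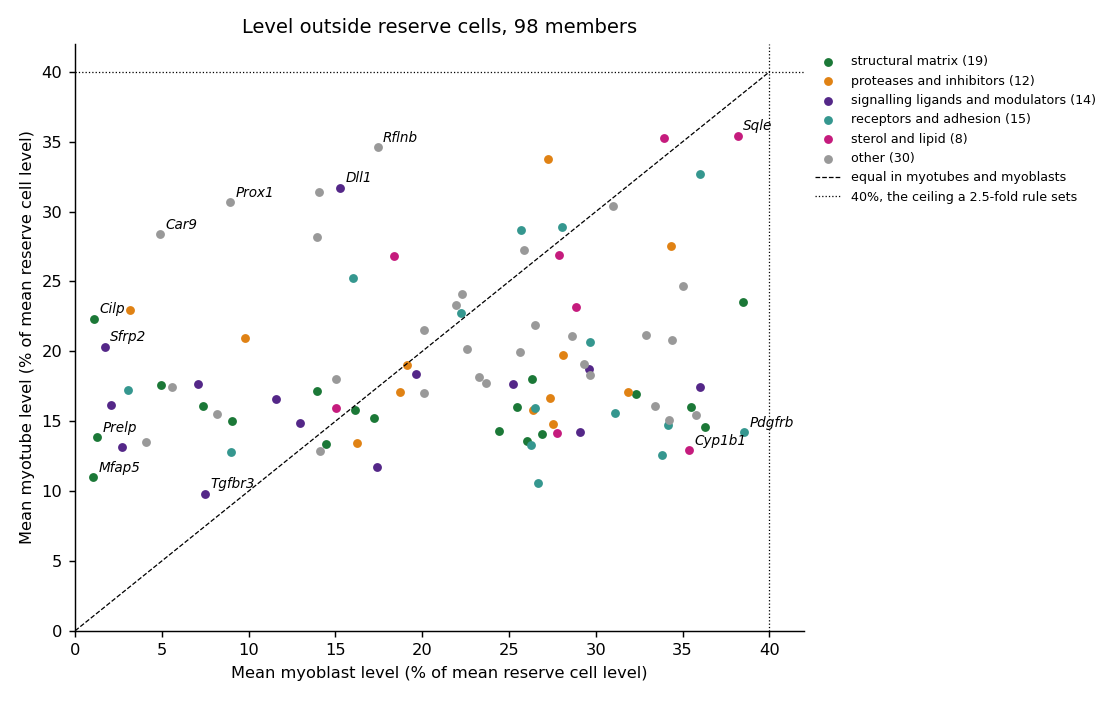
Each of the 98 members is a point with its mean myoblast level on the x axis and its mean myotube level on the y axis, both as a percentage of its mean reserve cell level and coloured by role, and the dotted lines mark the 40% that a 2.5-fold rule allows. Myotube levels stay at or above 9.82%, while myoblast levels reach down to 1.04%, with Mfap5 and Cilp at the left edge.

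Promoter sequence is shown for these low-myoblast genes, since they differed most between myotubes and myoblasts. RefSeq promoters (GRCm38.p6, the assembly of mm10) were matched to 63 of the 98 members and to 8 of the 11, and 6 of these start within 20 bases of the annotated gene start. Each line below gives the 120 bases before the start of transcription, 5′ to 3′ on the strand of the gene, with the motifs named afterwards in capitals.
Cilp (chr9:65265060-65265179, plus strand): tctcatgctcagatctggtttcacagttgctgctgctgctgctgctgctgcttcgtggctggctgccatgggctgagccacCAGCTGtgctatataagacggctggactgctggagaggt
Fam180a (chr6:35326142-35326261, minus strand): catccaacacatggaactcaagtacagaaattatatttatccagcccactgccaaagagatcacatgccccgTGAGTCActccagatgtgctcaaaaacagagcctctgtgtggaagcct
Nkd2 (chr13:73847632-73847751, minus strand): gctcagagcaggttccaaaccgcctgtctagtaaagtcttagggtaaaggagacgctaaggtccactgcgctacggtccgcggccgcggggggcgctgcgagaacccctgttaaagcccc
Postn (chr3:54360987-54361106, plus strand): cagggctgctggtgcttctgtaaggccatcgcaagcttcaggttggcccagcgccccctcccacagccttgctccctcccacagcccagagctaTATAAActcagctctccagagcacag
Prelp (chr1:133921402-133921521, minus strand): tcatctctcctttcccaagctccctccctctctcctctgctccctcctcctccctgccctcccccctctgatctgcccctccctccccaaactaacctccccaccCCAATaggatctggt
Sfrp2 (chr3:83766201-83766320, plus strand): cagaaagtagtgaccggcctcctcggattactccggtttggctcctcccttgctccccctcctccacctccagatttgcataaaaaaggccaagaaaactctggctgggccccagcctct

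The capitals mark an E-box of the kind bound by MyoD (CAGCTG) in Cilp, an AP-1 motif (TGANTCA) in Fam180a, a TATA box (TATAAA) in Postn and a CCAAT box (CCAAT) in Prelp, while Nkd2 and Sfrp2 held none of the motifs searched in this window. Over the 250 bases before the start and on both strands, CAGCTG was found in 20.6% of the 63 members against 14.7% of 27025 genes. TATAAA was found in 11.1% against 14.3%, CCAAT in 28.6% against 37.5% and TGANTCA in 9.52% against 7.82%. The RBPJ motif GTGGGAA, read by Notch signalling, was found in 9.52% against 6.18%, and the TEAD motif GGAATG in 11.1% against 14.4%. The sterol regulatory element TCACNCCAC was found in 1.59%, against 1.22% of all genes, with Adamts1 as its single member. These shares lay near those of all genes, and a match is a run of letters and not a measured site.

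Some members overlap a neighbouring gene. Syn3, a synapsin, was a member with 226 and 239.6 CPM in reserve cells, 42.3 and 43.1 CPM in myotubes and 64.4 and 73.6 CPM in myoblasts, yet its counts in reserve cells lay entirely on the retained-intron transcript Syn3-203, with 4345 and 4494 counts in reserve cells, and its coding transcripts held 0 counts there. The last exon of Syn3-203 overlaps that of Timp3 on the opposite strand, and whether counting used the strand is not given in the sources used here, so the 2 genes cannot be told apart at that exon. Overlaps with other genes also touch Tagln, Adamts4, G0s2, C1s1, Cebpd and 4833422C13Rik. Of the 95 protein-coding members, 92 also met the rule on counts of coding transcripts alone, and those that did not were Lss, Syn3 and Rapgef3. Most of the 98 members lay apart in the genome, and the closest pairs with a gap were Slc24a3 with Rin2 (33049 bases), Lss with Col6a2 (38624 bases), Tg with Ccn4 (40599 bases) and Sdc2 with Cpq (48194 bases). Cpq, a secreted carboxypeptidase, had 85.6 and 85.6 CPM in reserve cells, 26.3 and 20.9 CPM in myotubes and 27.98 and 30.8 CPM in myoblasts, and Pcdhb20, a clustered protocadherin, and Kirrel3, an adhesion protein of the immunoglobulin family, had 20.8 and 21.2 CPM and 12.3 and 11.1 CPM in reserve cells.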

How the data were processed

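Poly(A) RNA of 6 C2C12 libraries was sequenced, 2 each of reserve cells, myotubes and myoblasts. Per the labels and the study's methods, the authors mapped paired-end reads to mm10 with HISAT2, filtered them with SAMtools and assembled them with StringTie. They deposited an estimated count per transcript and library, as whole numbers. For versions, annotation release, strandedness and what 1 count stands for (read or pair), the sources used here give nothing. The deposited table of the whole series holds 2 times these estimated counts, in part less 1, and was used as an alternative only.

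Of 142604 transcripts, 141374 were paired with genes of GENCODE M21 and 1230, 0.375% to 0.872% of a library's counts, kept their own identifiers. Depth was 15658875 to 20055078 estimated counts, so that 3 counts, the detection floor, equal 0.150 to 0.192 CPM. Members were found on CPM of library totals. Levels in TPM used the annotated length. Tests used the quasi-likelihood fit of edgeR 4.0.16 (R 4.3.3) on all 6 libraries, scaled by TMM, after filterByExpr at a minimum count of 10, with Benjamini-Hochberg adjustment over 15467 genes. Replicates differed by more than sampling noise (chi-square per degree of freedom 6.53 to 8.30). Each p-value sets a difference between group means against the spread between these libraries, which was estimated in a single fit of all 6. The procedure was run on simulated data, but the outcome is not given here and lends no weight to the calls.

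The members and lists were chosen with earlier results of these data known. Named genes were the 25 members with the largest excess, the 15 most abundant, up to 6 per list, the 10 with the largest called difference between myotubes and myoblasts in each direction, and 5 on either side of each limit. Other members and pathway genes were named after their values were seen. Alternatives were 15 settings of the rule and 12 of the test, DESeq2 1.42.0 among them. Some genes under this rule are not reported here.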

Additional observations from a re-analysis of the deposited data

How the results depend on the processing

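The number of members followed the fold limit, with 164 at 2-fold and 33 at 4-fold, against 98. It was 95 with TMM-scaled CPM (90 shared), 99 without mitochondrially encoded genes in the totals (97 shared), 126 at 5 CPM, 80 at 20 CPM and 98 from the table of the whole series. Leaving out 1 library, or all libraries of a replicate number, gave 102 to 135, since fewer libraries must pass. Replicates 1 alone and replicates 2 alone gave 135 each, of which 103 were shared (76.3% of each).

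Between myotubes and myoblasts, 35 members were called higher and 28 lower. DESeq2 gave 32 and 25, RLE factors 38 and 28, no filter 34 and 28, the 4 libraries of the groups compared 31 and 26, library totals 27 and 42, and leaving out 1 library 31 to 38 and 26 to 30. In the IGF list, 11 genes in place of 7 were higher in reserve cells than in myotubes with library totals. No alternative called a member in the opposite direction. Libraries with the same replicate number shared no detectable deviation (correlations of same-numbered deviations -0.03 to 0.04). This cannot show whether they came from the same culture, which the sources used here do not give. With the replicate block 36 members were higher and 30 lower. The adjusted p of Trabd2b and Adamts16 passed the threshold in all settings but DESeq2. With 2 libraries per group, members near a limit could change sides.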
